A study of Mus musculus with 157 samples.

Results

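The mRNAs Ddit4l, Ckmt1, Zfp365, 1700007K13Rik, 9530053A07Rik and Serpinf1 form a group of 6 of the 19600 genes counted in polysome fractions of mouse B cells. They were picked by gene name for large rises after etoposide from near zero, so the LPS and LPS+ET values chose them. For that contrast the values below are a description without a test. All 6 genes passed the filter on low counts, which also used the LPS+ET values. The data went against the description for Serpinf1, which had 4.71 to 7.05 CPM (the counts of a gene over all counts of its gradient, times 1e+06) before etoposide, while the other 5 genes had means under 1 CPM.

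B cells from the spleen of C57BL/6Babr mice were activated with lipopolysaccharide (LPS) at 10 µg/ml for 48 h, and that culture without further treatment was the LPS group. The LPS+ET cells received etoposide at 20 µM for 4 h, and the LPS+ET+KU cells had 47 h of LPS by their labels and were given 10 µM KU55933 for 1 h ahead of the etoposide. All groups were therefore LPS-activated, and all were exposed to cycloheximide at 100 µg/ml for 3 min before lysis to hold ribosomes on their mRNAs. Each treatment had 4 sucrose gradients, 1 from each library pool LUL15 to LUL18, and fractions 4 to 16 of every gradient were sequenced from the 3′ end, 156 libraries in all. By the labels, monosomes run from fraction 4 to 7, light polysomes from 8 to 10 and heavy polysomes from 11 to 16. The paper describes 4 biological replicates, but no label says which animals or cultures a gradient came from. The p-values measure the spread between these gradients, and how much of it is technical cannot be told. A level here is that of mRNA in ribosome fractions, and fewer cells that express a gene cannot be told apart from less mRNA per cell.

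Etoposide locks topoisomerase II onto DNA, which ends in breaks of both strands. The kinase ATM is activated at such breaks, phosphorylates p53 and its regulators, and so allows p53 to switch on genes for cell cycle arrest, repair, metabolism and death. KU55933 inhibits ATM, while related kinases can also act on p53 after damage. On a sucrose gradient, an mRNA that carries more ribosomes sediments to a higher fraction, and a longer coding region has room for more of them.

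The members have unlike known roles. Ddit4l (also REDD2) is a relative of the mTORC1 inhibitor Ddit4, and Ckmt1 encodes the mitochondrial creatine kinase that moves phosphate between ATP and creatine. Zfp365 is the mouse counterpart of ZNF365, a zinc finger protein connected with replication fork recovery and telomere stability, and Serpinf1 encodes pigment epithelium-derived factor, a secreted serpin that does not inhibit proteases. 1700007K13Rik and 9530053A07Rik carry RIKEN clone names. In GRCm38, Ddit4l (ENSMUSG00000046818) lies on the plus strand at chr3:137621612-137628333, Ckmt1 (ENSMUSG00000000308) on the plus strand at chr2:121357714-121363737 and Zfp365 (ENSMUSG00000037855) on the minus strand at chr10:67886103-67912662. 1700007K13Rik (ENSMUSG00000026831) lies on the minus strand at chr2:28462001-28466332, 9530053A07Rik (ENSMUSG00000078776) on the plus strand at chr7:28129466-28164811 and Serpinf1 (ENSMUSG00000000753) on the minus strand at chr11:75409769-75422701. Their coding regions had 579 bases in Ddit4l, 1254 in Ckmt1, 1224 in Zfp365, 501 in 1700007K13Rik, 7743 in 9530053A07Rik and 1251 in Serpinf1 in the annotated transcript that ends nearest the counted site.

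The assay counts the 3′ ends of mRNAs, summed over poly(A) sites, of which Ddit4l had 2 selected ones. The ends below are those of the main counted site of each gene. Each is the last 30 transcribed bases up to the counted site, 5′ to 3′ on the gene's strand, all in a 3′ UTR, with the polyadenylation signal AATAAA or ATTAAA in capitals.
Ddit4l: tttttacAATAAAatgttatatatttttaa
Ckmt1: gtcctagtaaagactccacattatgttgca
Zfp365: ctatgatAATAAAgctatatttctgactaa
1700007K13Rik: tgttttATTAAAaagttgccacagcctcaa
9530053A07Rik: gcatcgagtaAATAAAtacctagacacaga
Serpinf1: agcctctgcAATAAAagagcttttccttaa
A signal of these letters started 20 to 24 bases before the site in 5 of the 6, and neither was present in the last 30 bases of Ckmt1. The Ckmt1 end overlaps the end of Strc on the opposite strand by 10 bases, and Strc had mean levels of 0.897, 1.15 and 1.22 CPM under LPS, LPS+ET and LPS+ET+KU on its own row of the table. Whether counting used the strand is not given in the sources used here, so reads in those 10 bases cannot be assigned with certainty.

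Because these mRNAs were chosen for a rise under a drug that activates p53, their promoters were searched for the p53 decamer, the 10-base unit that occurs as a pair in p53 response elements (consensus by its usual name, both strands, 250 bases before to 50 bases after each RefSeq start, GRCm38.p6). A decamer without mismatch lay in the promoters of Ddit4l and 1700007K13Rik, 2 of the 6, and in 8.36% of all 32851 mouse promoters in the same window. It began at position -90 from the start in Ddit4l, and at -91 and 31 in 1700007K13Rik (the start is position 1). The RefSeq start used for Ddit4l, chr3:137623672, lies inside the gene locus of the counts, which starts at 137621612, so its decamer also lies within that locus. The unit at 31 of 1700007K13Rik formed a pair with one at 20, with 1 mismatch in all and 1 base between them, and 1.09% of promoters held a pair with at most 1 mismatch and up to 13 bases between its units. Zfp365 had no perfect unit but had a pair of adjoining units with 2 mismatches in all at -63, and 10.1% of promoters held a pair with at most 2. The 130 bases before the start of these 3 genes are shown 5′ to 3′ on the gene's strand, with the decamer, or the pair in Zfp365, in capitals.
Ddit4l, plus strand, chr3:137623542-137623671: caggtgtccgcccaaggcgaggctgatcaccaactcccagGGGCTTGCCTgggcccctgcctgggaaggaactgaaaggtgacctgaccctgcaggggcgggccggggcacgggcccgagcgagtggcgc
Zfp365, minus strand, chr10:67912663-67912792: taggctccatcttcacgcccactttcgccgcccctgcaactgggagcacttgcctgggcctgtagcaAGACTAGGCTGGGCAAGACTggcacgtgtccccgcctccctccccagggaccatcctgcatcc
1700007K13Rik, minus strand, chr2:28466325-28466454: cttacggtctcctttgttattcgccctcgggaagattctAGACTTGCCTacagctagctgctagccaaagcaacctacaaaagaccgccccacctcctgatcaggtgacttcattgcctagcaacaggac
The promoters of Ckmt1, 9530053A07Rik and Serpinf1 held no perfect decamer. That of 9530053A07Rik held TATATA between 40 and 20 bases before the start, which 0.907% of promoters did. These matches are descriptions of letters and not of bound sites.

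Gradient totals ran from 6404957 to 21449781 counts, and the 156 libraries from 14724 to 4170688. The LPS+ET gradient of pool LUL16 stood apart: it had the lowest total, 4 of its libraries held under 100000 counts, and 30.4% of its counts came from heavy polysome fractions against 60.5% to 68.2% in the other LPS+ET gradients. Results that rest on pool LUL16 are therefore given with and without it. As a check of the labelled cell type, the 8 B cell markers summed to 6698 to 11265 CPM per gradient, against 0.434 to 5.69 CPM for the 6 T cell markers in the table, 34.3 to 166 CPM for 9 myeloid markers and 0.463 to 3.70 CPM for 7 stromal markers. Cd74 made up much of the B cell sum, at 4563 to 8653 CPM per gradient, while Pax5 had 0.224 to 2.66 CPM. In LPS+ET versus LPS, 7 of the 8 B cell markers had log2 fold changes below 0, with a median of -0.76. Cd22 was called lower (mean 411 to 102 CPM, adjusted p 0.00171, edgeR), and 4 markers were with the pool as a block in the fit. Among the T cell markers, Cd3g reached 4 counts and Thy1 56 counts in a gradient, both in LPS+ET+KU. Among the myeloid markers, Lyz2 reached 874 counts in an LPS+ET gradient. The highest myeloid sum was in LPS+ET, where its range of 52.5 to 166 CPM overlapped the 34.3 to 90.5 CPM of LPS. The 52.5 CPM of LPS+ET and the 90.5 CPM of LPS were both of pool LUL16. All 7 myeloid markers tested had log2 fold changes above 0 in LPS+ET versus LPS, with a median of 0.66 and 0 called. Without pool LUL16 the median was 1.29 and 1 was called higher. The part of these markers in the results was not tested.

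Before etoposide, 5 of the 6 members were at the edge of detection. Ddit4l had 3, 3, 3 and 4 counts in LPS, given here and below in the order of pools LUL15, LUL16, LUL17, LUL18, which are 0.217, 0.154, 0.325 and 0.306 CPM. Over the 4 gradients this was 13 counts, or 0.234 CPM with an exact 95% Poisson interval of 0.125 to 0.400, an interval that covers counting error only. Ckmt1 had 0.652, 0.154, 0.434 and 0.535 CPM in the same order of pools, Zfp365 had 1.59, 0.823, 0.651 and 0.841 CPM, 1700007K13Rik had 0.435, 0.0515, 0.325 and 0.306 CPM, and 9530053A07Rik had 0.652, 0.257, 0.651 and 0.841 CPM. Pool LUL16 was the lowest LPS gradient for 4 of these 5 genes, all but Zfp365. Serpinf1 had 4.71, 5.45, 7.05 and 5.197 CPM, from 65 to 106 counts per gradient.

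After etoposide the 5 near-silent mRNAs stood between 8.74 and 114 CPM. Ddit4l had 33.4, 8.74, 31.6 and 31.95 CPM in the LPS+ET gradients of pools LUL15 to LUL18, and Ckmt1 had 34.9, 29.8, 36.9 and 38.4 CPM. Zfp365, on the scale of 3′ end counts, which do not grow with transcript length, reached the highest level of the group, with 114, 49.3, 73.2 and 63.3 CPM. 1700007K13Rik had 43.8, 10.46, 16.4 and 25.03 CPM, and 9530053A07Rik had 49.6, 14.7, 45.0 and 60.9 CPM. The ratio of mean CPM, LPS+ET over LPS, was 105 for Ddit4l, 85.6 for 1700007K13Rik, 79.0 for Ckmt1, 76.8 for Zfp365 and 70.9 for 9530053A07Rik. With summed counts the Ddit4l ratio was 123, and its counting interval of 71.6 to 231 covered the summed-count ratios of the other 4, which ran from 78.8 (Zfp365) to 100.2 (1700007K13Rik). In the ranking of fitted log2 fold changes over 12755 tested genes, these 5 stood between rank 11 and rank 26 from the top.

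Serpinf1 had a higher starting level and a smaller ratio. Its LPS+ET gradients had 23.1, 6.40, 33.1 and 31.5 CPM, and the ratio of means was 4.20. The LPS+ET gradient of pool LUL16 (6.40 CPM) lay below the highest LPS gradient (7.05 CPM), so the 2 groups overlapped, as they did for no other member. For the other 5 genes all LPS+ET gradients lay above all LPS gradients, which held for 17.3% of all genes and was part of how the members were picked. Serpinf1 ranked 579 of 12755.

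**Figure D1:**
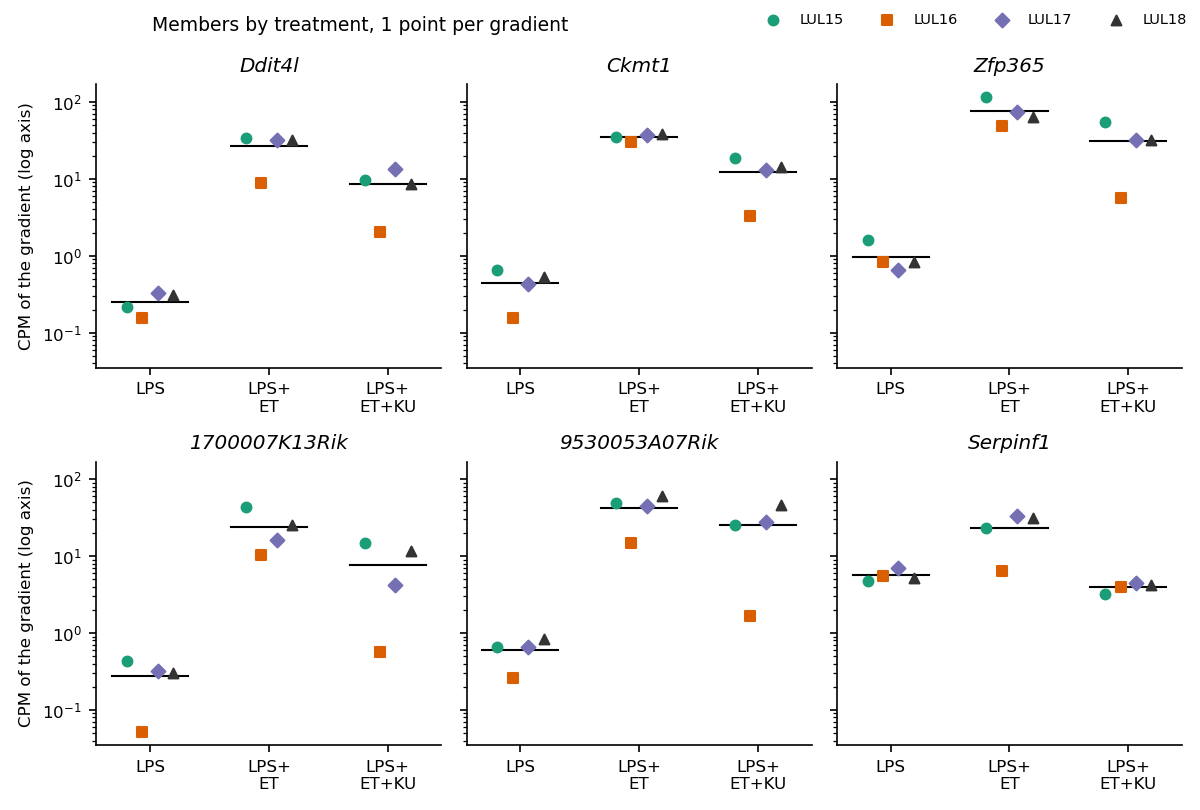
CPM of each gradient (log axis) for the 6 members in LPS, LPS+ET and LPS+ET+KU, with 1 symbol per library pool and a black line at the mean of 4 gradients. With the inhibitor, 5 members sit between their LPS and LPS+ET means, while the LPS+ET+KU gradients of Serpinf1, at 3.25 to 4.53 CPM, sit below every LPS gradient.

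The first question the design puts to these mRNAs is whether their level after etoposide depends on ATM. No group received KU55933 without etoposide, so a change of the starting level by the inhibitor cannot be told apart from a loss of the rise. With KU55933, Ddit4l had 9.76, 2.05, 13.6 and 8.64 CPM in pools LUL15 to LUL18, Ckmt1 had 18.6, 3.26, 13.0 and 14.4 CPM, and Zfp365 had 54.6, 5.69, 31.8 and 31.6 CPM. 1700007K13Rik had 14.7, 0.559, 4.20 and 11.5 CPM, 9530053A07Rik had 25.4, 1.68, 27.98 and 45.6 CPM, and Serpinf1 had 3.25, 3.96, 4.53 and 4.21 CPM. Within its pool, each LPS+ET+KU gradient was below the LPS+ET gradient for all 6 members in 4 of 4 pools, which held for 19.4% of all genes. All LPS+ET+KU gradients lay below all LPS+ET gradients for Ckmt1 and Serpinf1 alone (4.19% of all genes), and for all members but 9530053A07Rik when pool LUL16 was left out (13.6% of all genes). The comparison uses the same LPS+ET gradients whose high values chose the members.

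How much of the rise remained under the inhibitor differed in value between members. The share of the rise kept, the LPS+ET+KU mean minus the LPS mean over the LPS+ET mean minus the LPS mean, was 31.6% for Ddit4l, 31.6% for 1700007K13Rik, 34.4% for Ckmt1, 40.4% for Zfp365 and 58.5% for 9530053A07Rik. For Serpinf1 it was -9.004%, since its mean with the inhibitor (3.99 ± 0.54 CPM, SD, n = 4) was below that in LPS (5.60 ± 1.01 CPM, SD, n = 4). Without pool LUL16 the shares were 32.4% for Ddit4l, 34.9% for 1700007K13Rik, 40.9% for Ckmt1, 46.4% for Zfp365, 63.1% for 9530053A07Rik and -7.02% for Serpinf1, the same order. Within single pools this order was not kept. In pool LUL16 Ddit4l kept 22.1% and 9530053A07Rik 9.86%, and in pool LUL15 Ckmt1 kept 52.4% and 9530053A07Rik 50.5%. The share of 9530053A07Rik ran from 9.86% (pool LUL16) to 74.5% (pool LUL18), and that of Serpinf1 was -157% in pool LUL16.

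Tested with edgeR over all genes, Serpinf1 alone among the 6 was called lower with the inhibitor. LPS+ET+KU was lower than LPS+ET by a log2 fold change of -2.55 ± 0.40 (SE), with an adjusted p of 0.00607 (quasi-likelihood test, Benjamini-Hochberg over 12755 genes, call under 0.01). Genes called lower made up 0.235% of the genes tested. The members were chosen for high LPS+ET values, so a lower level with the inhibitor was favoured in advance for them. The other 5 members did not pass: Ckmt1 had -1.53 ± 0.39 and an adjusted p of 0.0607, Ddit4l -1.64 ± 0.48 and 0.0933, Zfp365 -1.29 ± 0.46 and 0.177, 1700007K13Rik -1.65 ± 0.67 and 0.238, and 9530053A07Rik -0.75 ± 0.65 and 0.634, all log2 fold changes ± SE. The Serpinf1 call was a near one: its adjusted p ran from 0.000154 to 0.0297 when single gradients were left out, and stayed under 0.01 in 1 of these 12 fits, the one that left out pool LUL16 of LPS+ET.

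Gradients of the same pool deviated together, and with the pool as a block 5 of the 6 members were called lower, against 3.59% of all genes. Their log2 fold changes and adjusted p were -2.46 and 0.000292 for Serpinf1, -1.70 and 7.44e-05 for Ddit4l, -1.70 and 0.00125 for Ckmt1, -1.94 and 0.00145 for 1700007K13Rik, and -1.499 and 0.00451 for Zfp365. 9530053A07Rik had -1.10 and 0.0257 in that fit and was not called. The share over all genes comes from genes not chosen for high LPS+ET values, so it is not like for like with the members. With pool LUL16 left out, Serpinf1, Ddit4l and Ckmt1 were called without the block (1.23% of genes called lower) and all 6 with it (12.3% of genes called lower). Leaving out any other pool under the block lost calls: Serpinf1, Ddit4l and Ckmt1 were called without pool LUL15 (0.621% of genes called lower), Serpinf1 and Ddit4l without pool LUL17 (0.543%), and Ddit4l alone without pool LUL18 (0.387%), where Serpinf1 had an adjusted p of 0.011.

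**Figure D2:**
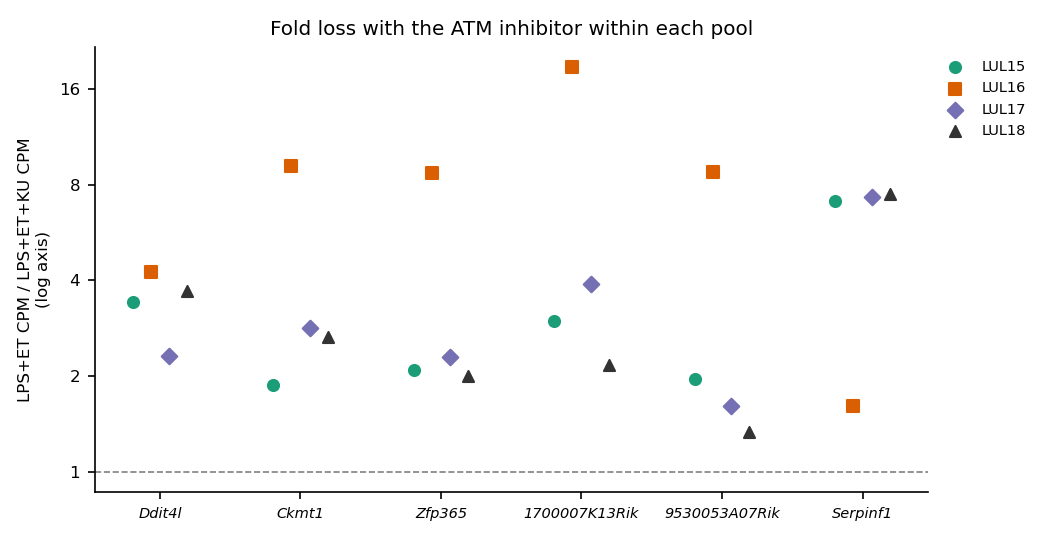
LPS+ET CPM divided by LPS+ET+KU CPM within each library pool (log axis) for each member, with 1 symbol per pool and a dashed line at no change. Pool LUL16 gives the highest ratio for 5 members and the lowest, 1.62, for Serpinf1.

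Pool LUL16 gave the largest ratio for 5 members and the smallest for Serpinf1. Within that pool the ratio of LPS+ET to LPS+ET+KU was 4.26 for Ddit4l, 8.67 for Zfp365, 8.74 for 9530053A07Rik, 9.14 for Ckmt1 and 18.7 for 1700007K13Rik, and in each case this was the highest of the 4 pools. In the other 3 pools the ratios of these genes ran from 1.34 (9530053A07Rik, pool LUL18) to 3.90 (1700007K13Rik, pool LUL17). Serpinf1 went the other way, with a ratio of 1.62 in pool LUL16 and of 7.09, 7.29 and 7.49 in pools LUL15, LUL17 and LUL18. The LPS+ET+KU gradient of this pool had 37.6% of its counts in heavy polysome fractions, against 43.1% to 55.5% in the others, and the part of that makeup in these ratios was not tested.

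Differences between members in their response to the inhibitor were tested on the log2 ratio of 2 members within a gradient, for 15 pairs. None passed an adjusted p of 0.05 (exact permutation test over 70 splits of 4 against 4 gradients, two-sided, smallest possible p 0.0286, adjusted p from 0.824 to 1). The lowest exact p was 0.114, for 1700007K13Rik against 9530053A07Rik, whose log2 ratio was -0.85 ± 0.62 under LPS+ET against -1.76 ± 0.81 under LPS+ET+KU (SD, n = 4), lower with the inhibitor in 4 of 4 pools. The log2 ratio of 9530053A07Rik to Serpinf1, the members with the smallest and the largest loss, was 0.92 ± 0.33 under LPS+ET against 1.94 ± 2.14 under LPS+ET+KU (SD, n = 4), with an exact p of 0.429. Without pool LUL16 that difference was 2.16 on the log2 scale, and 3 against 3 gradients gave an exact p of 0.1, the smallest such a split can give. These p-values do not show that the members respond alike.

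Set against LPS alone, the inhibitor left 5 members far above their starting level. LPS+ET+KU over LPS was 33.96-fold for Ddit4l, 27.8-fold for Ckmt1, 31.6-fold for Zfp365, 27.7-fold for 1700007K13Rik and 41.9-fold for 9530053A07Rik in mean CPM, and for these genes all LPS+ET+KU gradients lay above all LPS gradients (17.9% of all genes). All 5 were called higher, as were 6.25% of the genes tested, with log2 fold changes from 4.69 (1700007K13Rik) to 5.32 (9530053A07Rik) and adjusted p from 5.78e-05 (Ckmt1) to 0.00305 (1700007K13Rik, edgeR). The count filter behind these calls also used the LPS+ET gradients. With only the 8 gradients of this comparison, 1700007K13Rik did not pass the filter. Serpinf1 did not pass, at -0.59 ± 0.39 (SE) and an adjusted p of 0.297, although its LPS+ET+KU gradients lay below all its LPS gradients, which 8.43% of genes did. With the pool as a block and pool LUL16 left out, Serpinf1 had an adjusted p of 0.0066 in that comparison. The comparison shares its LPS gradients with the values that chose the members.

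The second question is where along the gradient these mRNAs sat. Each fraction library was scaled to CPM before the shares of a gene were taken, since equal RNA concentrations went into the libraries, and the shares are therefore of relative levels at equal depth and not of molecules. In LPS the 5 near-silent genes had too few counts for a profile. In LPS+ET, Ckmt1 sat deepest: its highest fraction was 14, with 25.97 ± 5.51% of the gene (SD, n = 4), and its heavy polysome share was 66.9%, 65.7%, 66.7% and 73.6% in pools LUL15 to LUL18. Ddit4l was highest in fraction 12 (22.01 ± 3.71%) and Serpinf1 in fraction 11 (20.4 ± 1.8%). 1700007K13Rik, with the shortest coding region, was highest in fraction 10 (20.7 ± 8.0%), as was 9530053A07Rik (19.8 ± 5.2%), and Zfp365 in fraction 9 (16.2 ± 0.7%).

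**Figure D3:**
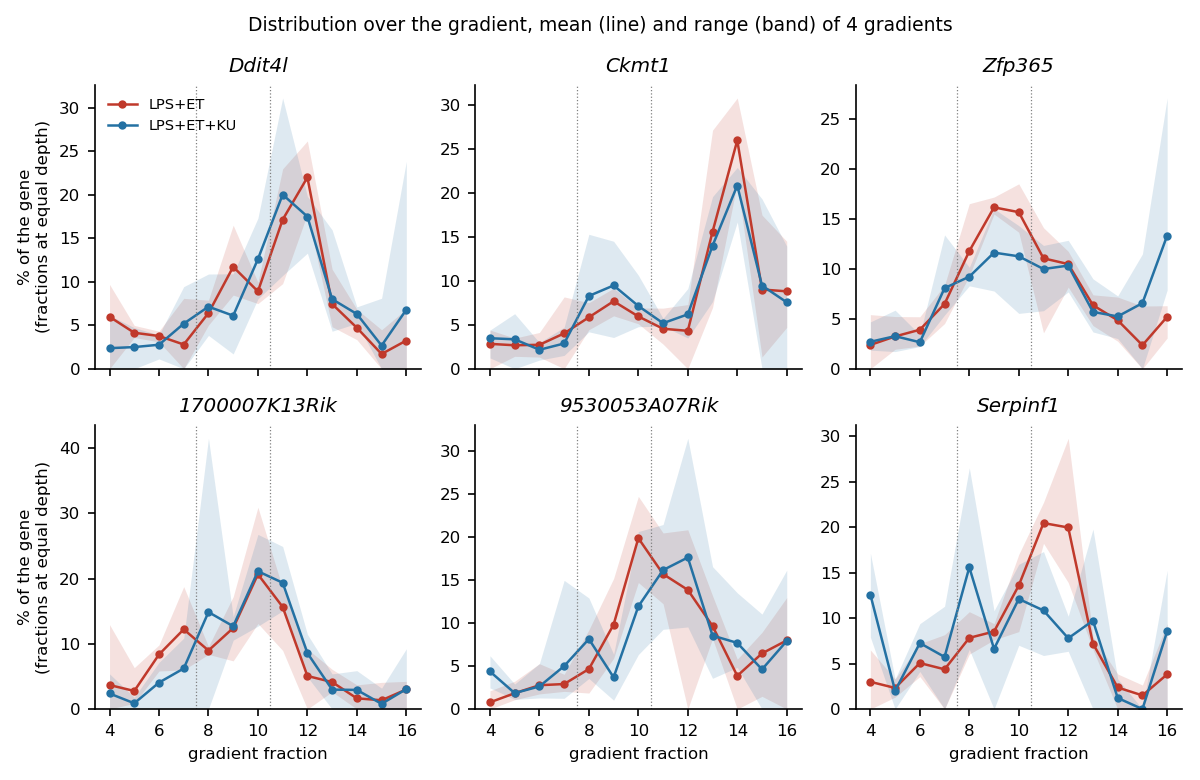
Share of each member's level in fractions 4 to 16, in percent of the gene with all fractions scaled to equal depth, for LPS+ET (red) and LPS+ET+KU (blue). Lines are means of 4 gradients, bands run from the lowest to the highest gradient, and dotted lines separate monosomes, light and heavy polysomes. Ckmt1 peaks in fraction 14 under both treatments, 1700007K13Rik in fraction 10.

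The centre of the profile, the mean fraction number weighted by level, ordered the members in LPS+ET as Ckmt1 (11.9 ± 0.5), 9530053A07Rik (11.2 ± 0.8), Serpinf1 (10.3 ± 0.5), Ddit4l (10.3 ± 0.6), Zfp365 (10.1 ± 0.7) and 1700007K13Rik (9.33 ± 0.74, all SD, n = 4), where the median of 10539 genes was 10.51. Ckmt1 lay above every other member in 4 of 4 gradients, for instance by 1.54 ± 0.27 fractions over Serpinf1 (SD, n = 4), although its coding region of 1254 bases is close to the 1251 of Serpinf1. 9530053A07Rik lay above Ddit4l, Zfp365, Serpinf1 and 1700007K13Rik in 4 of 4 gradients. Serpinf1, Ddit4l and Zfp365 changed order between gradients and did not differ beyond their spread. The order did not follow coding length: 9530053A07Rik has the longest coding region, 7743 bases, and lay 0.74 ± 0.45 fractions short of Ckmt1 (SD, n = 4).

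With the inhibitor, Serpinf1 moved towards lighter fractions by value and Zfp365 towards heavier ones. The heavy polysome share of Serpinf1 was 46.8%, 55.9%, 61.3% and 57.1% under LPS+ET, against 32.02%, 39.5%, 47.6% and 33.4% in LPS+ET+KU, in the order of pools LUL15 to LUL18. It was lower with the inhibitor in 4 of 4 pools, and the groups overlapped only in that the highest LPS+ET+KU value (47.6%) lay above the lowest LPS+ET value (46.8%). The difference of -17.2 percentage points had an exact permutation p of 0.0571 (two-sided, 70 splits, adjusted over 10539 genes 0.701). Over its alternatives this exact p ran from 0.0286, with fractions 10 to 16 taken as heavy or without the LPS+ET+KU gradient of pool LUL17, to 0.314 with counts as deposited, where the difference was -7.58 percentage points. With the inhibitor the profile rests on 29 to 85 counts of Serpinf1 per gradient. In LPS, where Serpinf1 has 65 to 106 counts, the heavy share was 46.7%, 34.7%, 44.0% and 53.2%.

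The mean fraction of Zfp365 was 10.2, 9.16, 10.7 and 10.2 under LPS+ET, against 10.8, 10.7, 10.9 and 10.9 in LPS+ET+KU, without overlap of the groups. The difference of 0.76 fractions had an exact permutation p of 0.0286, the smallest that 4 against 4 gradients can give, and an adjusted p of 0.669 over 10539 genes. The mean share of Zfp365 rose from 2.36% to 6.57% in fraction 15 and from 5.21% to 13.3% in fraction 16, while its light polysome share fell from 43.6% to 32.1%. The rises in fractions 15 and 16 rest on 41 and 26 summed counts under LPS+ET, and on 36 and 37 under LPS+ET+KU. Of all genes, 4.27% had an exact p under 0.05 for the mean fraction and 4.58% for the heavy share, so 1 of 6 members for the mean fraction and 0 of 6 for the heavy share are read against those values. The Zfp365 difference rested in part on pool LUL16: it was 0.45 without the LPS+ET gradient of that pool (exact p 0.0286) and 0.495 without the whole pool, with an exact p of 0.1, the smallest that 3 against 3 gradients can give. It was -0.03 when counts were used as deposited instead of at equal depth, and its difference in heavy share was 10.8 percentage points, with an exact permutation p of 0.0857. Ddit4l, Ckmt1, 1700007K13Rik and 9530053A07Rik had differences in heavy share of 5.03, -5.01, 6.86 and 5.01 percentage points, with exact permutation p from 0.2 to 0.714. Single gradients decided much of these values: without 1 gradient they ran from 2.85 (LPS+ET, pool LUL15) to 8.39 (LPS+ET, pool LUL18) for Ddit4l and from -7.30 (LPS+ET+KU, pool LUL17, exact p 0.0286) to -2.80 (LPS+ET+KU, pool LUL15) for Ckmt1. Without the LPS+ET+KU gradient of pool LUL17 they were 1.14 for 1700007K13Rik and 0.157 for 9530053A07Rik, and without that of pool LUL16 they were 11.8 and 12.3. The 9530053A07Rik difference turned to -2.90 with fractions 10 to 16 taken as heavy.

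**Figure D4:**
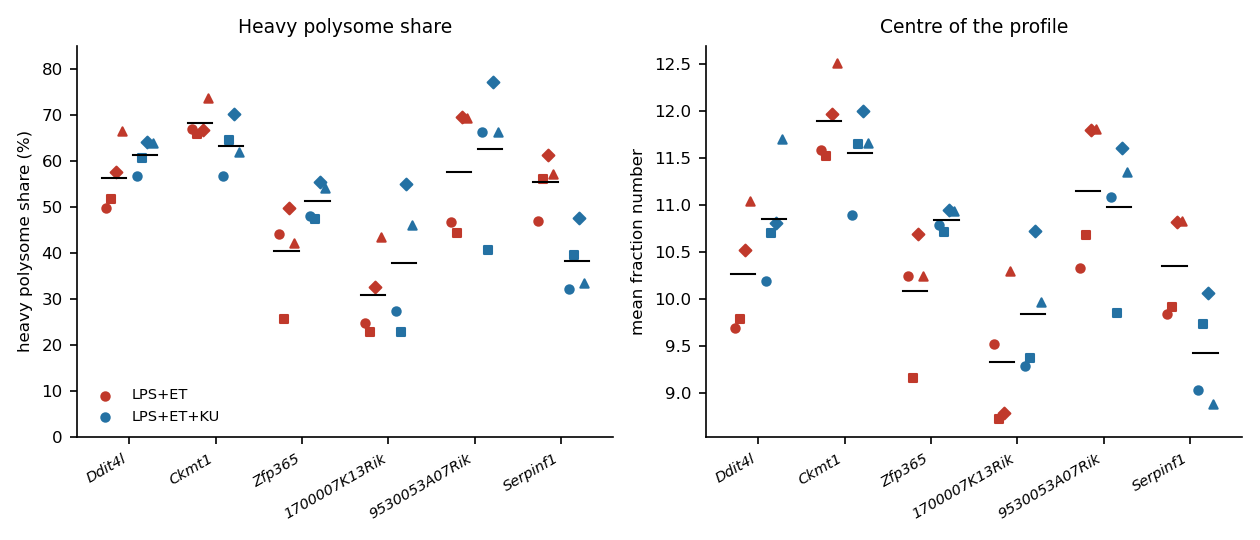
Heavy polysome share (left, percent of the gene in fractions 11 to 16) and mean fraction number (right) of each member, 1 symbol per gradient (shapes as for the pools in the plot of CPM), red for LPS+ET and blue for LPS+ET+KU, with black lines at the means. The Zfp365 groups do not overlap on the right, and the Serpinf1 means are 55.3% and 38.1% on the left.

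Fitted levels of all 6 members were lower with the inhibitor in each class of fractions. The choice of members by high LPS+ET values favoured this in advance. With the pool as a block, 4 members were called lower in monosomes (Serpinf1, Ckmt1, Zfp365 and 1700007K13Rik, against 3.12% of 8932 genes), all 6 in light polysomes (3.43% of 9922) and 4 in heavy polysomes (Serpinf1, Ckmt1, Ddit4l and 1700007K13Rik, 1.57% of 11368). Without the block, Serpinf1 was called lower in light and heavy polysomes (0.151% and 0.317% of genes) and no member in monosomes (0.146%), where 4 had an unadjusted p under 0.05 and DESeq2 also called none. The log2 fold change of Serpinf1 with the block was -1.68 ± 0.40 in monosomes, -2.20 ± 0.33 in light and -2.66 ± 0.28 in heavy polysomes (SE). For 1700007K13Rik the order was the reverse, with -2.46 ± 0.43, -2.07 ± 0.27 and -1.44 ± 0.30 (SE). 9530053A07Rik had -0.93 ± 0.32, -1.55 ± 0.34 and -0.69 ± 0.30 (SE), and its adjusted p passed in light polysomes only (0.00616, edgeR).

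**Figure D5:**
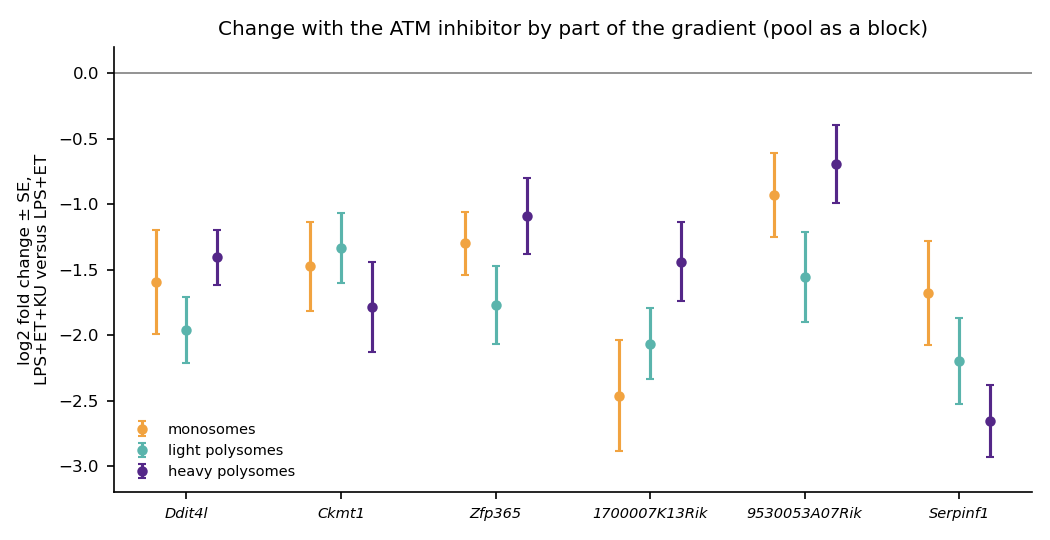
Log2 fold change of LPS+ET+KU versus LPS+ET ± SE (edgeR with the pool as a block) of each member in monosomes (fractions 4 to 7), light polysomes (8 to 10) and heavy polysomes (11 to 16). All values are below 0, and Serpinf1 falls furthest in heavy polysomes (-2.66).

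A fit over the single-fraction libraries of LPS+ET and LPS+ET+KU, with fraction, treatment and their interaction, asked for a change in any fraction. It called 5 of the 6 members, all but 9530053A07Rik (adjusted p 0.218), against 8.01% of 10472 genes, and all 6 with the pool as a block (18.3% of genes). The 13 libraries of a gradient are not independent, so these p-values are too small. The choice of members by high LPS+ET values also favoured their calls in advance. Tested alone, the interaction, a change in the shape of the profile, called none of the 6 (1.05% of genes). Serpinf1 had the lowest interaction p of the members, 0.033 unadjusted and 0.451 adjusted, and was the only one under 0.05.

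Other genes of the members' pathways gave the following background, from lists in which no member stands. Of 34 p53 target genes tested, 26 were called higher in LPS+ET than in LPS and Pank1 (named after its value was seen) lower, where 7.88% and 4.81% of all genes were, and their median log2 fold change was 2.15 against 0.03 over all genes. Perp, a membrane protein of p53-dependent apoptosis, came nearest to the members in kind, with mean levels of 0.124, 7.92 and 1.82 CPM under LPS, LPS+ET and LPS+ET+KU. Cdkn1a, the p21 cell cycle inhibitor, had 26.9, 722 and 662 CPM, and Phlda3, a repressor of Akt, 7.51, 320.2 and 263 CPM in the same order. With the inhibitor 1 p53 target was called lower, Ppm1d, a phosphatase that turns off the ATM and p53 response (log2 fold change -1.14 ± 0.15, SE, adjusted p 0.00179), and 10 with the pool as a block. The median of the 34 was -0.56, against 0.04 over all genes.

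Few of the genes related to single members were called by edgeR. Of 18 mTORC1 inhibitors and energy sensors, the list nearest to Ddit4l, Sesn2 and Ddit4 were called higher after etoposide, and without the block none was called with the inhibitor (4 at an unadjusted p under 0.05, none called by DESeq2). With the block 3 of them were called with the inhibitor: Sesn2, a sestrin, was lower (log2 fold change -0.79, adjusted p 0.00216), and Prkab1 (0.68 and 0.00882) and Prkab2 (1.42 and 0.00833), both AMPK subunits, were higher. Ddit4 itself stood at 124, 457 and 452 CPM under LPS, LPS+ET and LPS+ET+KU, so its level with the inhibitor differed little in value from that without, where Ddit4l had 26.4 and 8.51 CPM. None of 17 mTOR complex genes was called in either comparison, by edgeR or DESeq2 (1 and 0 at an unadjusted p under 0.05 in edgeR). Beside Ckmt1, 9 creatine and adenylate kinase genes were tested, of which the adenylate kinase Ak1 (0.474, 14.4 and 12.6 CPM) and the creatine transporter Slc6a8 (0.785, 4.29 and 4.22 CPM) were called higher after etoposide and none was called with the inhibitor, by edgeR (0 at an unadjusted p under 0.05) or DESeq2. The block added Ak3 and Ckb to those higher after etoposide. Of 6 serpins beside Serpinf1, Serpine2, a protease inhibitor of thrombin and plasminogen activators, was called higher after etoposide and lower with the inhibitor (10.4, 296.6 and 93.6 CPM, log2 fold change with the inhibitor -1.66 ± 0.24, SE, adjusted p 0.00379), and Serpinb1a was called lower after etoposide. Serpinb6a was called higher with the inhibitor under the block alone (log2 fold change 0.99, adjusted p 0.00141). None of 17 fork protection and telomere genes, the list nearest to Zfp365, was called in either comparison without the block (4 and 2 at an unadjusted p under 0.05), while DESeq2 called 2 after etoposide and 1 with the inhibitor. With the block Atr and Terf1 were among those called after etoposide, both lower.

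Other genes shared the near-silent start of these mRNAs. With an LPS mean at or under the 0.977 CPM of Zfp365 and a log2 fold change after etoposide at or over the 6.07 of 9530053A07Rik, 21 further genes were found. All 21 had lower fitted levels with the inhibitor. Of them 1, Notch3, was called (log2 fold change -3.03), where 0.235% of all genes were called lower. Their median log2 fold change with the inhibitor was -1.997, against 0.04 over all genes. The 5 near-silent members had values of -1.65 to -0.75. The 21 genes were found by high values in the same LPS+ET gradients, so a lower level with the inhibitor was favoured in advance. By fold change the highest were Fam124a, Adra2b, Gal, Zfp92, Notch3, Rai2, Robo3 and Slc2a4. Notch3, a Notch receptor, had 0.151, 22.9 and 2.88 CPM under LPS, LPS+ET and LPS+ET+KU, and Gal, the galanin neuropeptide gene, had 0.109, 15.6 and 1.197 CPM. Fam124a had 0 counts in LPS and 115 counts in LPS+ET, at least 50.2-fold higher against a floor of 3 counts over the 4 LPS gradients.

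Across all 12 gradients, the log2 CPM of the 5 near-silent members correlated with each other at Pearson's r of 0.953 (Ddit4l and 1700007K13Rik) to 0.991 (Ckmt1 and Zfp365), and that of Serpinf1 with theirs at 0.483 to 0.606. The 3 treatments set much of these values, which are given as a description. The most alike genes were Hic1 (r = 0.995), a p53-induced transcriptional repressor, and Pafah2 (0.994) for Ddit4l, Slc4a11 (0.996) and P2rx7 (0.995) for Ckmt1, Pvrl4 (0.994) and Tex15 (0.991) for Zfp365, Parp10 (0.983) and Svop (0.982) for 1700007K13Rik, Svop (0.986) and Prrg4 (0.986) for 9530053A07Rik, and Tulp4 (0.923) and Gm9575 (0.923) for Serpinf1. Slc4a11, a membrane transporter, had 0.467, 26.8 and 8.71 CPM under LPS, LPS+ET and LPS+ET+KU, close to the 0.444, 35.04 and 12.3 CPM of Ckmt1. Tulp4 had 12.0, 24.7 and 12.5 CPM, where Serpinf1 had 5.60, 23.5 and 3.99 CPM.

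The nearest genes on the chromosome did not share the size of the rise. Of the 13 neighbours examined, 12 were tested and Ado, a neighbour of Zfp365 that encodes a thiol dioxygenase, was the only one called after etoposide (18.2 to 42.5 CPM, log2 fold change 1.11, adjusted p 0.003, edgeR). Fcgbp, 8604 bases from 9530053A07Rik on the same strand, had 0.711, 0.944 and 1.91 CPM under LPS, LPS+ET and LPS+ET+KU. Mrps2, a mitochondrial ribosomal protein gene 1734 bases from 1700007K13Rik, had 105, 135 and 123 CPM. Smyd4, 4064 bases from Serpinf1, had 3.93, 4.14 and 4.14 CPM.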

How the data were processed

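The authors made 3′ end libraries from equal RNA concentrations of each fraction, removed duplicates by random bases, aligned to GRCm38 (TopHat2 2.0.12 in the submitters' processing notes) and deposited whole-number counts per gene, summed over poly(A) sites and not normalized. Library totals therefore do not measure mRNA per fraction. Columns gave treatment, fraction and pool, and 78 of them could be matched to a treatment and fraction but not to 1 replicate. A fraction 17 library (777 counts) was left out.

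Each gradient's counts over fractions 4 to 16 were summed and tested with edgeR 4.0.16 (R 4.3.3, TMM, filterByExpr, quasi-likelihood F-test, 12 gradients, treatment as the only term), with calls at an adjusted p (Benjamini-Hochberg) under 0.01, two-sided. SE is the size of the log2 fold change over the root of F. Pool was taken as a pairing from the column names: deviations of same-pool gradients correlated at 0.305 to 0.799 (12 of 12 pairs over 0.1), and of other pairs at -0.628 to 0.284 (5 of 36 over 0.1). Shares and member ratios (0.5 added to counts) were compared by exact permutation in SciPy 1.17.1 and NumPy 2.4.6. Profiles took 10539 genes with at least 10 counts in every gradient compared. Alternatives used DESeq2 1.42.0 and limma 3.58.1 (0.5 CPM added). On data simulated for LPS+ET+KU against LPS+ET with 200 changed genes among 12755, edgeR recovered 74.5% at a log2 fold change of 2 and 0% at 1. The simulated gradients had no pool or etoposide effect, and the changed genes were drawn from all tested genes. These recoveries therefore need not hold for the members.

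The members, the gene lists and the tests were chosen with earlier results of these data known. The named genes are the 6 members, up to 4 called genes of each list by fold change (up to 2 by p where none was called), the 2 genes most alike to each member, genes of the same start and rise, and chromosome neighbours. Gene positions are those of the deposited table, features at counted sites come from GENCODE, and promoters from RefSeq, where all 6 members matched.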

Additional observations from a re-analysis of the deposited data

Results flagged for a closer look

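Of 30 groups of 4 gradients examined for a gradient far from the rest, by Dixon's gap test at the 95% level, 2 were marked, and chance marks about 1 in 20. Ddit4l had 8.743 CPM in the LPS+ET gradient of pool LUL16, where the other LPS+ET gradients had 31.59, 31.95 and 33.45 CPM. That gradient also had the lowest total and the lowest heavy polysome part of the LPS+ET group, and the part of these in the value was not tested. Ckmt1 had a heavy polysome share of 73.6% in the LPS+ET gradient of pool LUL18, where the others had 65.74%, 66.74% and 66.91%.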

How the results depend on the processing

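Every alternative kept the direction of the 6 members in all 3 comparisons of summed counts, except that 1700007K13Rik was filtered out of LPS+ET+KU versus LPS when only the 8 gradients of that comparison were fitted. The calls with the inhibitor did not hold as well. Of genes and members called in LPS+ET+KU versus LPS+ET (58 genes and 1 member), there were 811 and 5 with the pool as a block, 413 and 2 with DESeq2 (Serpinf1 and Ckmt1), 21 and 0 with limma on fractions of equal weight, 0 and 0 with only the 8 gradients compared (edgeR, unadjusted p under 0.05 in 1603 genes) and 319 genes at an adjusted p under 0.05. Alternatives without a whole pool were chosen after the data were seen: 275 and 3 without pool LUL16, 2903 and 6 with the block as well, and, with the block, 130 and 3 without pool LUL15, 120 and 2 without pool LUL17, and 86 and 1 without pool LUL18. Leaving out single gradients gave 19 to 172 genes and 0 to 1 members. The cause of these changes was not tested.

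In LPS+ET+KU versus LPS (1361 genes, 5 members) the count was 2903 at 0.05, 3589 with the block, 2319 with DESeq2, 5444 with the block without pool LUL16, 2062, 1755 and 1819 with the block without pool LUL17, LUL15 or LUL18, and 755 to 1708 genes and 4 to 5 members without single gradients. 1700007K13Rik lost its call in 4 of its 23 alternatives, and its adjusted p reached 0.0231 with limma. In LPS+ET versus LPS (1618 genes) the count was 2875 at 0.05, 3403 with the block, 5285, 1948, 2096 and 1848 with the block without pool LUL16, LUL15, LUL17 or LUL18, and 1082 to 2088 without single gradients.

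By class, in the order of the 0.05 threshold, the block, DESeq2 and the fit without pool LUL16, genes called were 95, 502, 109 and 42 in monosomes (main 19, and 37 without the count filter), 161, 531, 214 and 55 in light polysomes (main 29) and 206, 372, 283 and 155 in heavy polysomes (main 65). Members called were 0, 4, 0 and 0 in monosomes, 2, 6, 2 and 2 in light polysomes, and 2, 4, 2 and 3 in heavy polysomes. Without single gradients, genes ran from 2 to 38, 2 to 52 and 9 to 105, and members from 0 to 0, 0 to 1 and 0 to 1. Along the gradient (839 genes, 5 members) there were 110 and 0 for the interaction alone, 1919 with the block, and 406 to 1173 genes and 2 to 5 members without single gradients.

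For members with an exact p under 0.05, the heavy share (main 0) gave 1 with fractions 10 to 16 and 1 with fractions 12 to 16, and 0 to 2 without single gradients. The mean fraction (main 1) gave 0 with counts as deposited, 0 with sign flips of pool differences (replicate block, smallest p 0.125), 0 without pool LUL16, and 0 to 1 without single gradients. The Zfp365 mean fraction turned to -0.0314 with counts as deposited. No pair of members passed under any alternative (0 to 0 without single gradients). The pool block changed no other call of a member. Depth limits the LPS values of 5 members (1 to 22 counts per gradient) and the profile of 1700007K13Rik with the inhibitor in pool LUL16 (12 counts).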
